A study of Mus musculus with 83 samples.

Results

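The collagen genes of the mouse were followed here across 4 types of cortical neuron at 2 ages. Members were all rows of the deposited count table whose mouse symbol is Col, a number, the letter a and a number, with nothing after it, such as Col6a1. The rule found 44 genes among the 48795 genes of the table. The material was frontal cortex of male C57BL/6 mice that were young (2 months, 9 mice) or old (22 months, 12 mice), and the labels name no genetic change or treatment in either group. Each library came from a pool of 125 cell bodies cut by laser from stained tissue sections and was sequenced as total RNA. Pyramidal cells (PYC) were picked by Slc17a7, and 3 kinds of interneuron by Pvalb (PV), Sst (SST) or Vip (VIP). PYC, SST and VIP each have 12 old and 9 young libraries, and PV has 12 old and 8 young, which makes 83. Values of one gene are given as counts-per-million (CPM) of the library's total, and levels of different genes are compared per kilobase of exon.

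Collagens are secreted or membrane-bound proteins whose 3 chains wind into a triple helix. Fibrillar chains build fibres, FACITs (fibril-associated collagens with interrupted triple helices) decorate fibres or span between matrix and cells, type IV chains form the net of basement membranes, type VI chains form beaded filaments, multiplexins sit in basement membranes, and transmembrane collagens shed their outer part from the cell surface. Brain tissue holds little fibrillar collagen outside its membranes and vessels. Neurons are known to make some of the non-fibrillar chains, among them Col19a1, which takes part in the forming of synapses by interneurons, and Col25a1, whose shed part was first found in amyloid plaques.

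The libraries held 1.46 M to 27.2 M counts (median 6.99 M), so that 3 counts, the limit that a count of 0 allows, corresponded to 0.110 to 2.06 CPM, for counting error only. Between 11 and 38 collagen genes had counts in a library (mean 23.6). The gene used for picking was higher in its own type for each of the 4 types, but Slc17a7 was also read in the interneuron pools, from 130.5 CPM in the lowest PV library to 754 CPM in the highest VIP library. Mitochondrially encoded genes made up 0.215% to 2.51% of counts in 6 libraries (PYC young 2 and old 10, SST young 6, VIP young 1, young 3 and old 11) and 8.31% to 17.0% in the other 77. These 6 libraries are included throughout, and the collagen calls that end without them are named beside the result. For differences between 2 types this was done only for the 13 more abundant collagen genes. In pools of this kind, fewer cells of a type and less RNA per cell cannot be told apart.

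Summed over the 44 genes, collagen RNA had higher medians in SST and VIP pools than in PYC and PV pools, given as a description with no test. PYC libraries held 272 to 1590 CPM (median 449, mean 506 ± 264, SD, n = 21) and PV libraries 289 to 564 CPM (median 403, mean 417 ± 71.4, n = 20). SST libraries held 538 to 1105 CPM (median 776, mean 777 ± 160, n = 21) and VIP libraries 508 to 1574 CPM (median 679, mean 760 ± 266, n = 21). Most PV libraries lay below the lowest SST and VIP libraries, and the PYC range spanned all the others through one library, PYC young 2. Without the 6 libraries of low mitochondrial share the means were 447 ± 90.5 for PYC (n = 19), 767 for SST (n = 20) and 674 ± 131 CPM for VIP (n = 18).

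The types also differed in which collagens made up that sum. In PYC the beaded filament chains took 25.6% of collagen CPM, and FACITs and network chains took 23.7% each, with Col6a1 the leading gene at 18.7%. In PV the FACITs took 48.3%, and Col19a1 by itself took 34.2%. SST pools had 43.2% in FACITs and 16.4% in transmembrane collagens, and Col19a1 with Col25a1 made 51.0% of the sum. In VIP the network chains led with 29.4%, of which Col4a2 and Col4a1 together held 27.2% of the sum. Only 3 genes, Col19a1, Col4a2 and Col25a1, had counts in all 83 libraries, and 25 of the 44 had counts in fewer than 42.

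**Figure D1:**
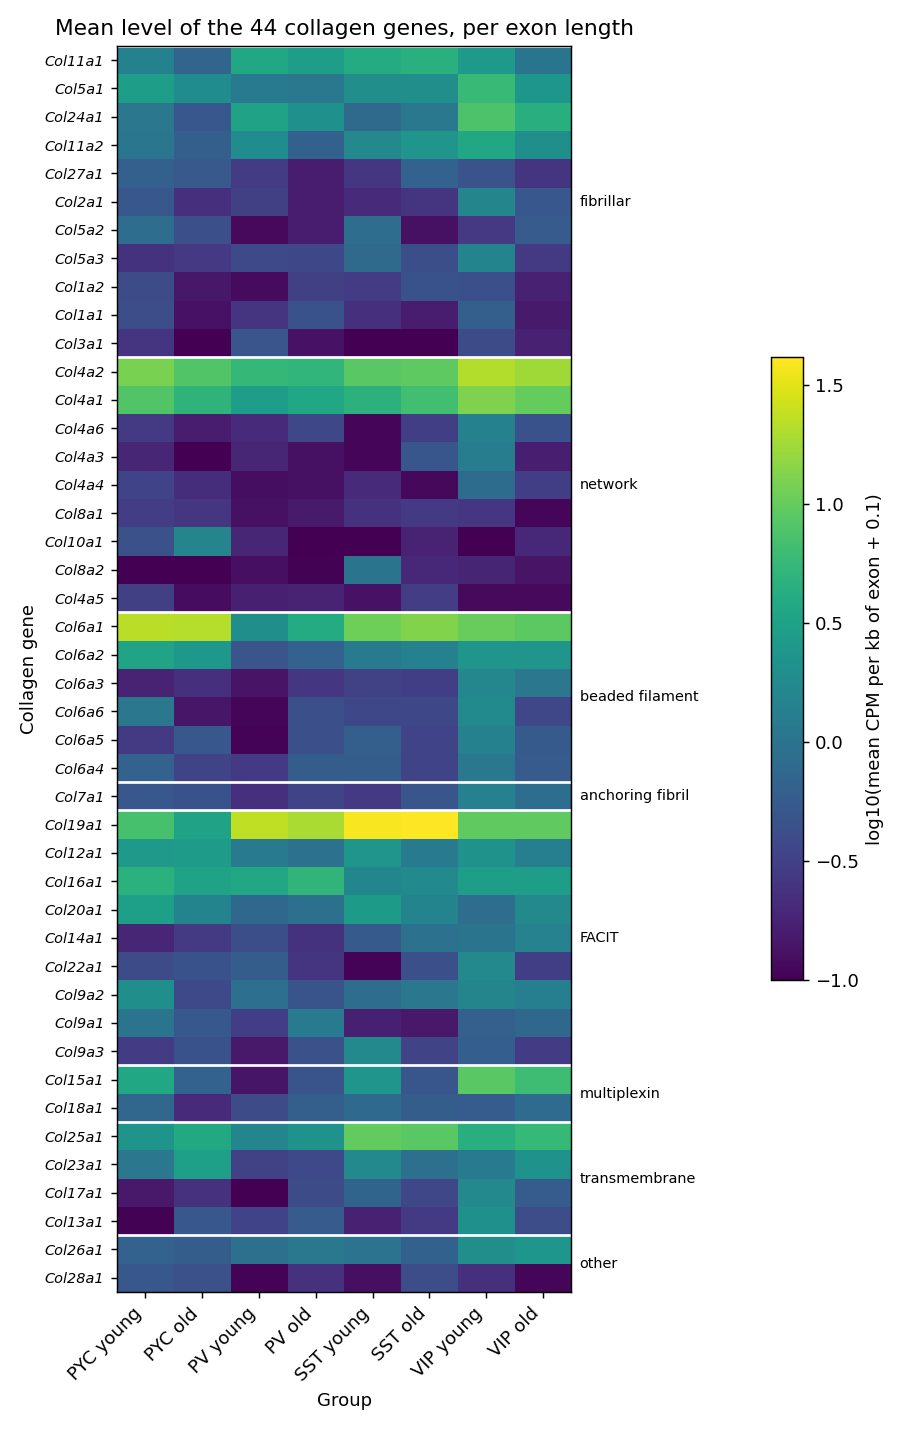
Mean level of each of the 44 collagen genes (rows, grouped by structural class) in the 8 groups of neuron type and age (columns), as log10 of mean CPM per kilobase of exon plus 0.1. Col19a1 in SST, Col6a1 in PYC and Col4a2 in VIP stand out with type means of 40.5, 21.6 and 18.7 CPM per kilobase, while most classical fibrillar chains stay near the floor.

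Each type was tested against the mean of the other 3 with edgeR's quasi-likelihood test over 19208 genes, in a fit with all 8 groups, and a gene was called at a Benjamini-Hochberg adjusted p under 0.05 with a change of at least 2-fold. Of the 44 collagen genes, 41 had enough counts to be tested, and 16 were called in at least 1 type. In VIP, 9 of 41 were called higher (22.0%), against 6.27% of all genes tested, and 0 were called lower, against 1.58%. In PV, 0 were higher, against 4.76%, and 7 were lower (17.1%), against 6.15%. PYC had 4 higher (9.76%, against 5.16%) and 3 lower (7.32%, against 3.52%), and SST had 3 higher (7.32%, against 4.11%) and 0 lower (against 1.38%). The shares in PYC and SST lie nearer to the background than those in PV and VIP. The median log2 difference over the 41 members was -1.14 in PV, beside -0.07 over all genes, and 0.97 in VIP, beside 0.09. In PYC and SST these medians were 0.13 and -0.06, beside 0.02 and 0.05.

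A large part of the family is sparse, so the calls were repeated over the 9604 genes at or above the median abundance, which hold 13 collagen genes. There VIP had 4 of 13 higher (30.8%, against 2.71%) and 0 lower (against 1.05%). PV had 0 higher (against 4.22%) and 6 lower (46.2%, against 5.39%). SST had 3 higher (23.1%, against 2.05%) and 0 lower (against 0.698%), and PYC 2 higher and 2 lower (15.4% each, against 2.95% and 3.72%). The calls among these 13 genes were of the same 9 genes in both fits. Without the 6 libraries of low mitochondrial share, the members' median log2 difference was -0.90 in PV and 0.99 in VIP, beside -0.05 and 0.08 over all genes. There 4 of 43 members were lower in PV (9.30%, against 5.72% of all genes), 2 were higher in PV (4.65%, against 5.29%) and 8 were higher in VIP (18.6%, against 6.45%). PYC then had 2 higher and 2 lower (4.65% each, against 5.34% and 3.32%), near the share of all genes. SST had 3 higher (6.98%, against 4.27%) and 0 lower (against 1.46%).

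**Figure D2:**
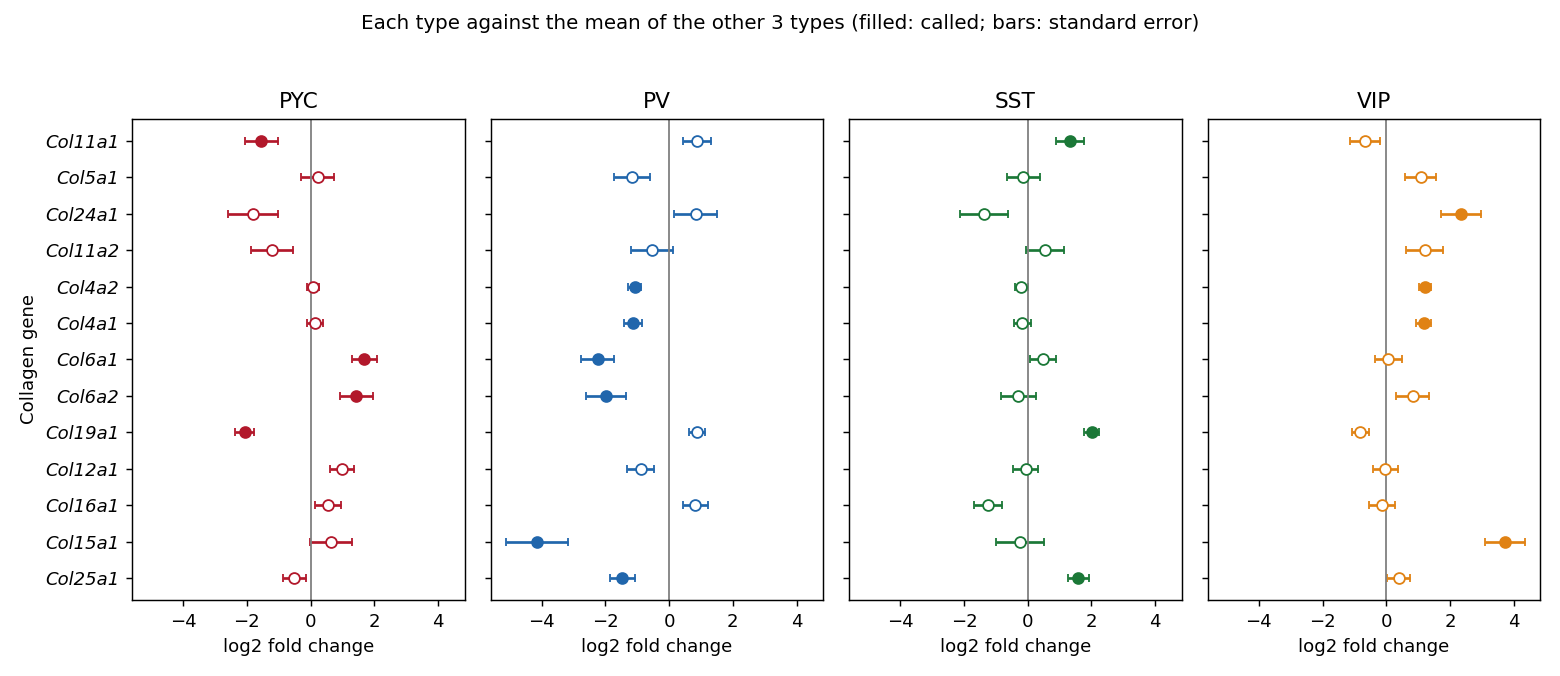
Log2 fold change of the 13 more abundant collagen genes in each neuron type against the mean of the other 3, with standard errors, on 1 scale for the 4 panels. Filled points passed an adjusted p of 0.05 and a 2-fold change: Col19a1, Col25a1 and Col11a1 in SST, Col4a1, Col4a2, Col15a1 and Col24a1 in VIP, Col6a1 and Col6a2 in PYC, with 6 genes on the low side in PV.

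Col19a1, a FACIT (chr1:24261890-24587472, minus strand, GRCm38), was the most abundant collagen of the SST pools. SST libraries held 140.2 to 437 CPM (median 261), PV libraries 75.8 to 252 CPM (median 131), VIP libraries 0.286 to 183 CPM (median 54.5) and PYC libraries 1.41 to 170.0 CPM (median 19.98). The order of the medians was thus SST, PV, VIP, PYC, and the ranges of neighbouring types overlapped. SST exceeded the mean of the other types by 2.01 ± 0.24 (SE) on the log2 scale (edgeR adjusted p = 6.00e-10), and PYC lay below it, with a log2 fold change of -2.07 ± 0.30 (adjusted p = 6.89e-08, edgeR). Between neighbours in the order, PV exceeded VIP by 1.26 (edgeR adjusted p = 0.00300), and PYC was below VIP by a log2 fold change of -0.94 that stayed under 2-fold (edgeR adjusted p = 0.0472). With the number after F in the sample titles, whose meaning the labels do not give, as a term (the F number), the latter missed the threshold (edgeR adjusted p = 0.0977). The difference of PYC and VIP also missed it with a filter on CPM (edgeR adjusted p = 0.0536) and with limma-voom (adjusted p = 0.051). In young libraries alone it was -0.35 (edgeR adjusted p = 0.933). PV was below SST by -0.86 ± 0.32 on the log2 scale, which missed the adjusted threshold (edgeR unadjusted p = 0.0101, adjusted p = 0.0761).

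Col25a1, a transmembrane collagen (chr3:130131501-130599877, plus strand), was also highest in SST. Its SST libraries held 60.8 to 310.2 CPM (median 92.9), its VIP libraries 11.6 to 169.5 CPM (median 52.4), its PYC libraries 0.213 to 120.2 CPM (median 37.8) and its PV libraries 0.187 to 89.3 CPM (median 16.9). All types overlapped, with PV lowest. The SST enrichment was 1.59 ± 0.33 on the log2 scale (edgeR adjusted p = 4.09e-04), while PV was below the other types with a log2 fold change of -1.46 ± 0.40 (edgeR adjusted p = 0.00575). SST and VIP, the upper pair, differed by 0.90 ± 0.44, which missed the threshold (edgeR adjusted p = 0.266).

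Col11a1, a fibrillar chain best known from cartilage (chr3:114030540-114220718, plus strand), was highest in SST and PV. SST libraries ran from 9.77 to 121 CPM (median 47.0) and PV libraries from 0 to 75.7 CPM (median 33.5), with VIP at 0 to 108 CPM (median 14.6) and PYC at 0 to 42.04 CPM (median 8.57). Ranges overlapped widely, and the low end of PV, VIP and PYC was 0. The log2 fold change was 1.34 ± 0.44 in SST (edgeR adjusted p = 0.0397) and -1.54 ± 0.51 in PYC (edgeR adjusted p = 0.0311). Both lie near the threshold: leaving out any of 7 SST libraries ended the first (edgeR adjusted p up to 0.0710) and leaving out PYC young 3 or 5 the second (up to 0.0507), with folds of 1.26 to 1.43 and -1.70 to -1.45 over all libraries left out. Without the low-mitochondrial libraries PYC gave -1.49 (edgeR adjusted p = 0.0578). PV against SST gave -0.35 ± 0.58 (edgeR adjusted p = 0.842).

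The 250 bases before the RefSeq start are shown for the 2 genes called higher in SST whose window holds no annotated exon, to let their makeup be seen beside the values. Capitals mark CCAAT and the GC box, GGGCGG, on either strand. The TATA box, TATAAA, and the cyclic AMP response element, TGACGTCA, were searched on both strands too. The Col25a1 window is chr3:130180595-130180844 and the Col11a1 window chr3:114030290-114030539, both on the plus strand of GRCm38.p6. The GENCODE start of Col25a1 lies further upstream, at 130131501.
Col25a1: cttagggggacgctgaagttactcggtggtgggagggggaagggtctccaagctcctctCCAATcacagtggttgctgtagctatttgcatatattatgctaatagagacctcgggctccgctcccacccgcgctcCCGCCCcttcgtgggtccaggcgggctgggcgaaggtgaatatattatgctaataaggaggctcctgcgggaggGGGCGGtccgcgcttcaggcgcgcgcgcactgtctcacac
Col11a1: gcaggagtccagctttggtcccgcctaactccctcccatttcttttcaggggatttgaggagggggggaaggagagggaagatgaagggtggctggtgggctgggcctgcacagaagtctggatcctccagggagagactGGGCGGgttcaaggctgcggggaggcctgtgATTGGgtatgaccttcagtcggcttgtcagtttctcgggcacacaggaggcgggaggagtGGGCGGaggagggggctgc
Both windows hold CCAAT once and the GC box at 2 places, motifs found in 33.9% and 32.7% of the 32851 RefSeq promoter windows of this length. Neither holds TATAAA (12.4% of windows) or TGACGTCA (1.55%). In Col25a1 the stretch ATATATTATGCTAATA occurs 2 times, starting 161 and 75 bases before the start, and 1.98% of windows hold a repeat of at least 16 bases. These are matches of letters and do not show that a factor binds there.

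**Figure D3:**
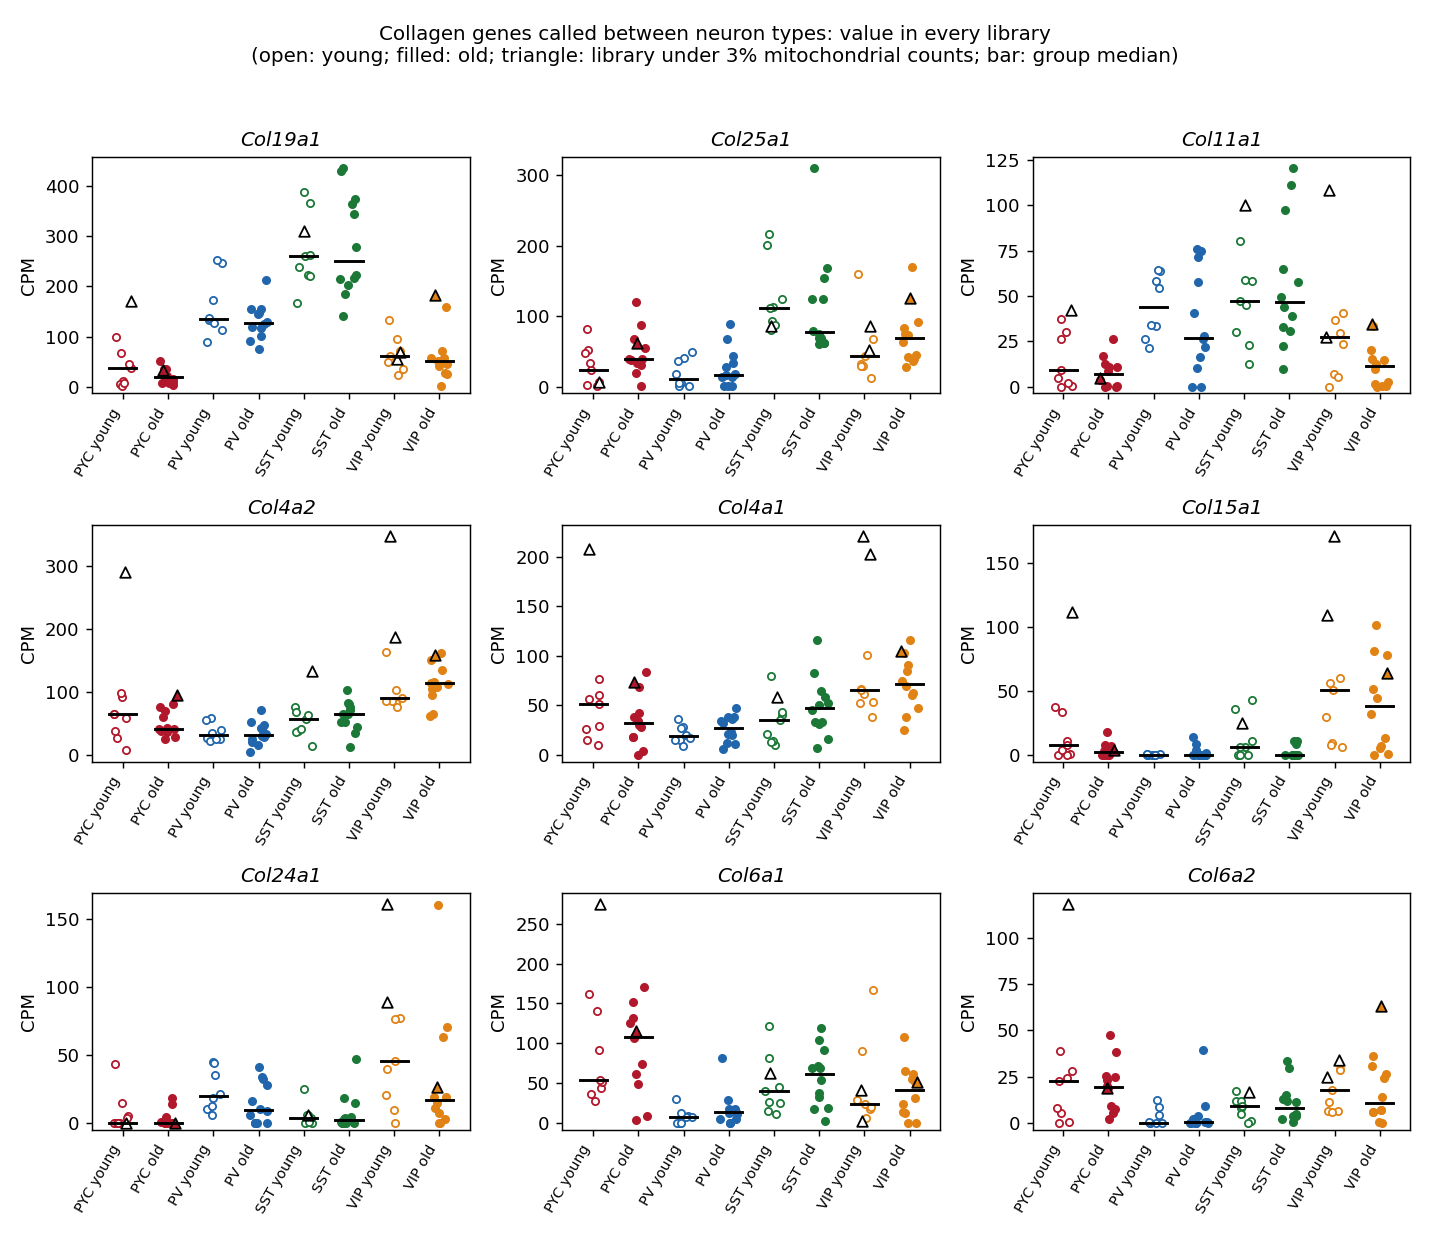
CPM of 9 collagen genes called between neuron types in every library, by type and age, with a bar at the group median, open points for young, filled points for old, and triangles for the 6 libraries under 3% mitochondrial counts. Col19a1 sits highest in SST (140.2 to 437 CPM), Col4a2 in VIP (61.0 to 347 CPM), and several of the top points for Col4a1, Col4a2, Col15a1 and Col6a2 are triangles.

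Col4a1 and Col4a2 encode the chains of the common type IV collagen, the net of every basement membrane, and both were highest in VIP and lowest in PV. Col4a2 ran from 61.0 to 347 CPM in VIP (median 107), 12.4 to 133 in SST (median 63.8), 7.01 to 289.5 in PYC (median 57.9) and 4.35 to 71.6 CPM in PV (median 31.6). Col4a1 ran from 25.2 to 221 CPM in VIP (median 66.9), 7.25 to 116 in SST (median 39.9), 0 to 208 in PYC (median 34.5) and 6.21 to 47.0 CPM in PV (median 21.9). The middle pair, SST and PYC, overlapped for both genes (log2 difference of Col4a2 between PYC and SST 0.21, edgeR adjusted p = 0.758), and the PV range overlapped the lower part of the VIP range.

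In VIP the log2 fold change against the other types was 1.21 ± 0.18 for Col4a2 (edgeR adjusted p = 1.48e-07) and 1.17 ± 0.24 for Col4a1 (edgeR adjusted p = 1.09e-04). In PV it was -1.08 ± 0.22 for Col4a2 (edgeR adjusted p = 4.12e-05) and -1.14 ± 0.28 for Col4a1 (edgeR adjusted p = 0.00127). Without the low-mitochondrial libraries the VIP value of Col4a1 was 0.99 (edgeR adjusted p = 0.00343) and the PV values were -0.86 and -0.90 (edgeR adjusted p = 7.54e-04 and 0.0124). These 3 then passed on p and lay under 2-fold.

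The genes lie head to head on chromosome 8, Col4a1 at chr8:11198423-11312826 on the minus strand and Col4a2 at chr8:11312805-11449287 on the plus strand. Their annotated ends share 22 bases, shown because the start of both genes falls on it, on the plus strand of GRCm38 at chr8:11312805-11312826.
Col4a1 and Col4a2 overlap: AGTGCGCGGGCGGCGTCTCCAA
Across libraries the levels of the 2 genes were correlated in PYC (Pearson's r = 0.63, adjusted p = 0.0329 by permutation over 8 such relations, n = 21). In VIP Pearson's r was 0.56 (permutation adjusted p = 0.0371, n = 21). Spearman's rho was 0.72 in PYC (permutation adjusted p = 0.00224). In VIP rho was 0.44, which missed the threshold (permutation adjusted p = 0.198). In PV r was -0.26 and in SST 0.19 (permutation adjusted p = 0.715 and 0.756). The VIP relation rests on few libraries: r fell to 0.20 without the 2 libraries farthest from the median and to 0.11 without those of low mitochondrial share. In PYC r was 0.52 without the latter (permutation adjusted p = 0.287).

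**Figure D4:**
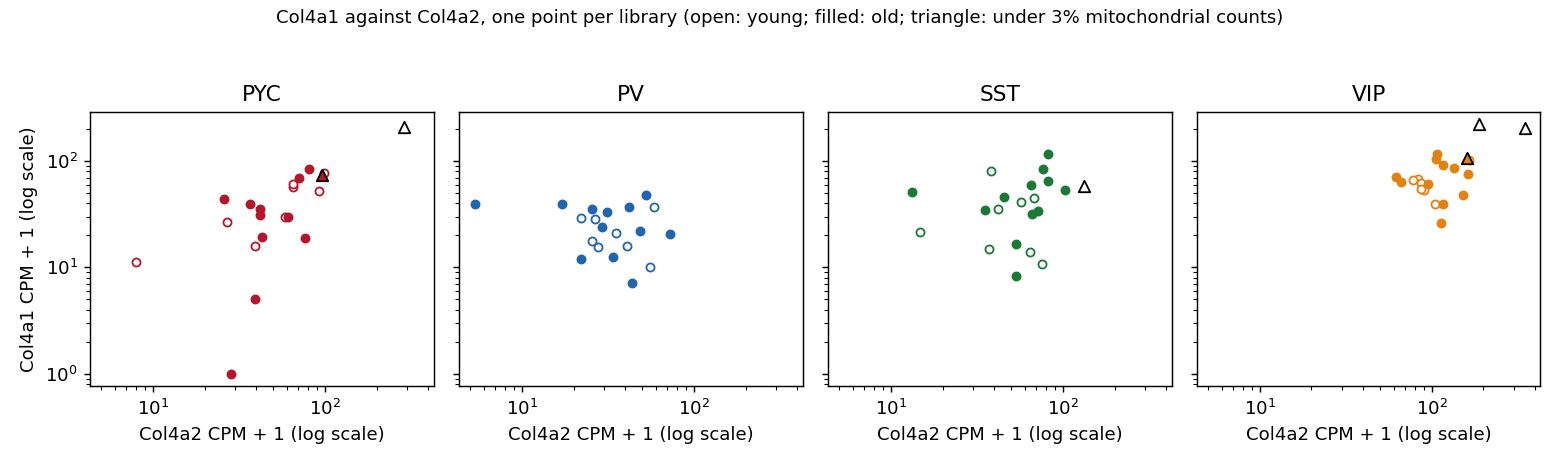
Col4a1 against Col4a2 in each library, CPM plus 1 on log axes, by neuron type, with triangles for the 6 libraries under 3% mitochondrial counts. The points rise together in PYC (r = 0.63), and in VIP (r = 0.56) the 2 young triangles at the upper right stand away from the rest.

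Endothelial cells and pericytes make type IV collagen and touch neurons in cortex, so their markers are given beside these values. The summed endothelial markers had a mean of 160 CPM in VIP (45.5 to 256) and of 107, 102 and 104 CPM in PYC, PV and SST. The mural markers had means of 93.8 CPM in VIP (30.6 to 230) and 51.4, 45.7 and 62.3 CPM in the others. Of 13 endothelial genes tested 10 had a positive difference in VIP (median 0.76 on the log2 scale, 0 called), and of 11 mural genes 11 had one (median 0.99, 1 called). Cldn5 had counts in 46 of the 83 libraries and was at 0 in 8 of the 21 VIP libraries. Within VIP the sum of Col4a1 and Col4a2 had r = -0.12 with the endothelial and mural sum (permutation adjusted p = 0.813), with r = -0.48 in PYC, 0.21 in PV and -0.38 in SST (permutation adjusted p = 0.239, 0.624 and 0.359 over 8 relations). The part of these markers in the difference between types was not tested.

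Col15a1, a multiplexin of basement membranes (chr4:47208161-47313167, plus strand), had the widest contrast of the abundant members. VIP libraries ran from 0 to 171 CPM (median 44.1, 1 library at 0), PYC from 0 to 111 CPM (median 3.32), SST from 0 to 43.0 CPM (median 0, 11 of 21 at 0) and PV from 0 to 14.1 CPM (median 0.128, 8 of 20 at 0). VIP was high in most libraries and SST and PV near the floor in most, SST with the lowest median, and all types overlapped at the low end. The log2 fold change was 3.73 ± 0.64 in VIP (edgeR adjusted p = 7.66e-06) and -4.15 ± 0.98 in PV (edgeR adjusted p = 9.48e-04). VIP exceeded SST, with a log2 fold change of -2.97 for SST against VIP (edgeR adjusted p = 0.0310), and PYC against VIP gave -2.30 (edgeR adjusted p = 0.0889). Without the low-mitochondrial libraries SST against VIP gave -2.60 (edgeR adjusted p = 0.0803), and in old libraries alone the PV value was -1.59 (edgeR adjusted p = 0.478).

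Col24a1, a fibrillar chain of developing bone and cornea (chr3:145292472-145552011, plus strand), was read mainly in VIP and PV. VIP libraries held 0 to 161 CPM (median 20.6), PV 0 to 44.5 CPM (median 14.5), SST 0 to 47.1 CPM (median 2.98) and PYC 0 to 43.6 CPM (median 0.163, 10 of 21 at 0). The VIP enrichment was 2.35 ± 0.63 on the log2 scale (edgeR adjusted p = 0.00650). VIP exceeded PYC and SST (log2 fold change of PYC against VIP -3.12, edgeR adjusted p = 0.0176, and of SST against VIP -2.79, edgeR adjusted p = 0.0466). Both pair calls ended without the low-mitochondrial libraries (-2.71, edgeR adjusted p = 0.0668, and -2.54, edgeR adjusted p = 0.1004) and with the F number as a term (adjusted p = 0.0565 and 0.116). PV against VIP gave -1.13 ± 0.88 (edgeR adjusted p = 0.454).

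The promoter windows of Col15a1 and Col24a1, the 2 abundant VIP genes whose windows hold no annotated exon, are set against the windows shown for the SST genes. They are chr4:47207762-47208011 and chr3:145292222-145292471, plus strand, GRCm38.p6, from RefSeq.
Col15a1: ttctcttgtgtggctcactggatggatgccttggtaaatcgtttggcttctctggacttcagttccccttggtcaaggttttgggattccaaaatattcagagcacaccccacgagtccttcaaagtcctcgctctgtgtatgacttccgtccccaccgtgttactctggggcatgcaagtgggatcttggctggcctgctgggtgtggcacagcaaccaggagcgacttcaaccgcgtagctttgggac
Col24a1: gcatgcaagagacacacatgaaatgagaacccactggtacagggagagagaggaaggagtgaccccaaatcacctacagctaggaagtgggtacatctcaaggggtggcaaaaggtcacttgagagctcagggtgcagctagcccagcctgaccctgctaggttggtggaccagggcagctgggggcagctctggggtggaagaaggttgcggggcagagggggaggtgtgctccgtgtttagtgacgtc
None of the 4 motifs is in either window, so no letter is in capitals. The Col24a1 window ends on the letters of TGACGTCA up to its last base, so a match there would cross the window's edge and was not searched. G and C make up 53.6% of the Col15a1 window and 58% of the Col24a1 window, beside 60.4% for Col25a1 and 62.4% for Col11a1.

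Type VI collagen is built from Col6a1, Col6a2 and a longer partner chain, and forms beaded filaments at cell surfaces. Col6a1 (chr10:76708792-76726168, minus strand) ran from 4.13 to 274 CPM in PYC (median 92.1), 2.16 to 122 in SST (median 44.4), 0 to 166 in VIP (median 28.8) and 0 to 81.0 CPM in PV (median 9.56). Col6a2, 85.2 kb away on the same strand, ran from 0 to 118 CPM in PYC (median 19.7), 0 to 63.4 in VIP (median 13.9), 0 to 33.6 in SST (median 9.24) and 0 to 39.3 CPM in PV (median 0.274, 8 of 20 at 0). For both genes PYC was highest and PV lowest by median, with overlap between all types.

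Col6a1 was higher in PYC by 1.69 ± 0.39 on the log2 scale (edgeR adjusted p = 9.55e-04) and lower in PV, with a log2 fold change of -2.24 ± 0.51 (edgeR adjusted p = 6.18e-04). PYC against SST (0.91 ± 0.52, edgeR adjusted p = 0.347) and against VIP (1.22 ± 0.52, edgeR adjusted p = 0.146) missed the threshold, while each of the 3 exceeded PV. Col6a2 gave 1.44 ± 0.51 in PYC (edgeR adjusted p = 0.0402) and -1.98 ± 0.64 in PV (edgeR adjusted p = 0.0187). Its PYC call ended when any of 6 libraries was left out (adjusted p up to 0.200), and both calls ended without the low-mitochondrial libraries (1.20, edgeR adjusted p = 0.175, and -1.73, edgeR adjusted p = 0.0591). Across the libraries of a type the 2 genes had r of 0.10 in PYC and SST, 0.14 in PV and -0.01 in VIP.

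Col6a3, the usual longer chain, had its highest median in VIP rather than in PYC. It was at 0 in 15 of 21 PYC, 11 of 20 PV and 12 of 21 SST libraries, with highest values of 8.65, 9.22 and 14.7 CPM, and ran from 0 to 52.7 CPM in VIP (median 6.36, 5 at 0). The VIP enrichment was 3.29 ± 0.80 on the log2 scale (edgeR adjusted p = 0.00163). Per kilobase of exon, PYC pools held 21.6 CPM of Col6a1, 2.79 of Col6a2 and 0.108 of Col6a3, and VIP pools 9.46, 2.21 and 1.21. The alternative longer chains were sparse in all types: Col6a4 had counts in 7 to 10 libraries of a type, Col6a5 in 6 to 11 and Col6a6 in 6 to 11, with highest type means in VIP of 5.98, 7.72 and 7.80 CPM. For Col6a6 the VIP mean was 2.50 CPM without VIP young 9, the library with 114 CPM.

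Among the other abundant members no type passed the threshold at 2-fold, and each is given by its type medians. Col5a1, the chain that starts and thins type I fibrils, had medians of 13.0 CPM in PYC, 6.49 in PV, 13.2 in SST and 19.0 CPM in VIP, and its VIP difference was 1.09 on the log2 scale (edgeR adjusted p = 0.148). Col11a2, a partner chain of Col11a1, had medians of 1.40, 5.28, 12.5 and 10.3 CPM in the same order. Col12a1, a FACIT of tendon and muscle, had medians of 33.7, 9.73, 13.2 and 21.1 CPM, and it was higher in PYC than in PV (1.41, edgeR adjusted p = 0.0402, and 1.03, adjusted p = 0.212, with the F number as a term) but not in PYC against all others (0.99 ± 0.38, edgeR adjusted p = 0.0687). Col16a1, a FACIT of many tissues, had medians of 17.4, 25.9, 9.48 and 8.92 CPM, and PV exceeded SST by 1.55 ± 0.51 (edgeR adjusted p = 0.0342, and 0.0556 with the F number as a term). That makes Col16a1 the 1 member higher in PV than SST among 5 called between them.

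Over the 6 pairs of types, the members past an adjusted p of 0.05, with no limit on the fold, ranged from 4 to 10 of 41 (edgeR). PYC and PV differed in 10 genes, 8 of them higher in PYC, with 16.8% of all genes called. PV and VIP also differed in 10, 9 of them higher in VIP, with 16.9% of all genes called. PYC and VIP differed in 6 (9.44% of all genes), PV and SST in 5 (10.9%), SST and VIP in 5 (6.52%) and PYC and SST in 4 (10.8%). Among the 13 members at or above the median abundance, 8 of these calls ended without the low-mitochondrial libraries. Between PYC and PV they were Col4a1 and Col4a2, and between PYC and VIP Col24a1. Between PV and VIP they were Col6a2 and Col25a1, and between SST and VIP Col4a1, Col15a1 and Col24a1. The pair calls of sparser members were not followed in that setting. The contrasts share libraries, so their counts are not independent of each other.

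The remaining 30 members, with Col6a3 the 31st below the median abundance, had counts in 9 to 67 libraries. In these genes a single library held 7.78% to 51.1% of the CPM summed over all libraries, against 4.06% to 12.1% for the 13 abundant ones. The highest library was a young VIP library for 13 of the 31. Young VIP libraries had the lowest mean total of the 8 groups (5.22 M counts), and the part of depth in these maxima was not tested. The matching share over all sparse genes was not computed, so the 13 of 31 is not shown to be particular to collagens. Classical fibrillar chains were near the floor: Col1a1 had counts in 20 libraries and Col3a1 in 9, with type means no higher than 1.80 and 1.74 CPM, and Col1a2 had means no higher than 3.56 CPM. Meningeal fibroblasts carry these transcripts, and the fibroblast markers Dcn and Lum had counts in 11 and 3 of the 83 libraries. Summed over the 14 listed fibroblast and meningeal markers, every library had counts. The sum ran from 6.14 to 51.7 CPM in PYC, 1.12 to 73.2 in PV, 3.22 to 128 in SST and 1.56 to 108 CPM in VIP. The summed Col1a1, Col1a2 and Col3a1 had r of 0.20, 0.08, 0.22 and -0.00 with the fibroblast markers in PYC, PV, SST and VIP (permutation adjusted p of at least 0.624).

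Several of the sparse network and surface collagens reached their highest mean in VIP. Col4a3, Col4a4 and Col4a6, chains of the specialised basement membranes of kidney and other organs, had counts in 8, 10 and 12 VIP libraries with means of 5.33 ± 17.3, 4.66 ± 7.15 and 6.07 ± 14.9 CPM (n = 21). Their VIP differences were 2.93 ± 0.81, 2.79 ± 0.92 and 2.82 ± 0.91 on the log2 scale (edgeR adjusted p = 0.00662, 0.0302 and 0.0262). Each of these 3 calls ended when VIP young 2 was left out, with DESeq2 (adjusted p = 0.238, 0.170 and 0.189) and with limma-voom (adjusted p = 0.332, 0.0640 and 0.0675). That of Col4a4 also ended without the low-mitochondrial libraries (edgeR adjusted p = 0.0572). Col4a3 was also below the others in PYC, where 2 libraries had counts (-3.01 ± 0.9953, edgeR adjusted p = 0.0275), a call that ended without SST young 4 and with DESeq2 (adjusted p = 0.159) or limma-voom (adjusted p = 0.160). Col4a3 shares 563 exonic bases with C430014B12Rik on the opposite strand, 5.65% of its exons. Col4a5 had means of 0.111 to 0.855 CPM. Col17a1, a transmembrane collagen of skin, had counts in 11 VIP libraries (5.74 ± 10.8 CPM) and gave 3.16 ± 0.83 in VIP (edgeR adjusted p = 0.00426) and -3.41 ± 1.14 in PV (edgeR adjusted p = 0.0241). Both Col17a1 calls ended with DESeq2 (adjusted p = 0.0741 and 0.0874) and limma-voom (1.45, adjusted p = 0.274, and -1.08, adjusted p = 0.262).

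In PYC the sparse calls were Col10a1, a network collagen of growth plate cartilage, and Col28a1, a chain of peripheral nerve. Col10a1 had counts in 7 PYC libraries (3.08 ± 6.93 CPM, highest 24.1) and in 1 library of each other type, and its log2 fold change was 4.99 ± 0.84 (edgeR adjusted p = 1.72e-06), while DESeq2 gave 4.64 (adjusted p = 0.327). It shares 18 exonic bases with Nt5dc1 on the opposite strand, and use of strand in the counting is not stated. Col28a1 had counts in 5 PYC libraries (mean 1.85 CPM, highest 17.7) and in 4 or 5 of each other type, with 2.74 ± 0.89 (edgeR adjusted p = 0.0236), a call that ended without PYC young 2 or PYC old 6, without the low-mitochondrial libraries (0.52, edgeR adjusted p = 0.873) and with limma-voom (0.33, adjusted p = 0.774). Col8a1 and Col8a2, network chains of the cornea and vessel wall, had means no higher than 1.38 and 2.02 CPM in any type.

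The other sparse members were not called in any type, and their highest type means fell in VIP for most of those that follow. Among fibrillar chains, Col2a1 of cartilage had counts in 16 VIP libraries (7.99 ± 9.68 CPM) and in 4 to 8 of the other types, Col5a2 in 13 PYC libraries (mean 4.92 CPM), Col5a3 in 11 VIP libraries (4.78 CPM) and Col27a1 in 16 PYC libraries (6.28 CPM). Among FACITs, Col14a1 had counts in 17 VIP libraries (8.25 ± 9.92 CPM), Col20a1 in 15 PYC libraries (10.6 ± 11.7 CPM), Col22a1 in 9 VIP libraries (7.45 ± 17.3 CPM), and the 3 chains of type IX collagen, Col9a1, Col9a2 and Col9a3, had type means of at most 3.66, 4.16 and 3.16 CPM. Among transmembrane collagens, Col23a1 had counts in 12 PYC libraries (11.9 ± 19.0 CPM) and Col13a1 in 7 VIP libraries (4.71 ± 10.97 CPM). Col7a1, the anchoring fibril of skin, had counts in 17 VIP libraries (10.2 ± 14.8 CPM), Col18a1, the multiplexin that yields endostatin, in 9 (4.35 ± 7.72 CPM), and Col26a1 in 19 (17.2 ± 22.3 CPM).

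Genes that process, bind or break down collagen were read beside the same background shares as the members. Their calls come from the edgeR fit of all 83 libraries. Results with other tools or with libraries left out are not given for these lists. Of 28 tested genes listed for folding, cross-linking and trimming, 4 were higher in VIP (14.3%, against 6.27% of all genes). They were Tll2 (4.07 on the log2 scale), Adamts14 (2.87), which trims procollagen, Pcolce (2.66), which speeds procollagen trimming, and Loxl1 (1.70), a cross-linking oxidase. Of the 28, PV had 2 higher and 2 lower, PYC 2 higher and 1 lower, and SST 1 higher. Among 11 tested collagen receptors, 1 was called, Adgrg1, the type III collagen receptor, higher in SST (1.02). Of 19 other basement membrane genes, PYC had 4 lower (21.1%, against 3.52%, among them the laminin chains Lama1, -2.99, and Lamb1, -1.05), VIP 3 higher (15.8%, against 6.27%, Smoc1, 3.59, Lama5, 2.23, and Lama3, 2.12), PV 1 higher and 2 lower, and SST 1 of each. Of 10 collagenases and their inhibitors, PV had 2 lower (20%, against 6.15%), Timp2 (-1.44) and Timp3 (-1.11), SST had Timp3 higher (1.56) and VIP had Mmp9 higher (3.40). The medians over these 4 lists were 0.38, 0.19, 0.42 and 0.60 in VIP, and -0.40, -0.30, -0.76 and -0.33 in PV.

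Old and young libraries of the same type were compared by the same test over 12337 to 12805 genes, and 0 collagen genes were called, as were 0 of all genes (background 0% in each type). At an unadjusted p under 0.05, edgeR gave 361, 288, 368 and 368 genes in PYC, PV, SST and VIP (2.89%, 2.29%, 2.87% and 2.98% of genes tested). Collagens among them numbered 2, 0, 0 and 1, out of 19, 15, 18 and 20 members tested. DESeq2 called 0, 2, 1 and 0 genes over the whole table (0%, 0.0159%, 0.00781% and 0%), and limma-voom 2, 2, 1 and 0 (0.016%, 0.0159%, 0.00781% and 0%). With no filter on low counts, edgeR called 20.4%, 20.9%, 18.5% and 21.4% of all genes, and 4, 2, 1 and 2 members. The summed collagen level had medians of 509 CPM in young and 427 in old PYC, 385 and 416 in PV, 832 and 742 in SST, and 825 and 652 CPM in VIP, with overlapping ranges.

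In PYC 16 of the 19 tested members were lower in old libraries, with a median log2 fold change of -0.61, beside 0.00 over all genes. Without the low-mitochondrial libraries, young 2 and old 10, 10 of 18 members were lower and the median was -0.22. The medians were -0.09 in PV, 0.13 in SST and -0.26 in VIP. In VIP it was -0.03 without the 3 low-mitochondrial libraries.

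Col15a1 in PYC ran from 0 to 111 CPM in young libraries (median 7.89) and from 0 to 17.5 CPM in old ones (median 2.26). The old range lay inside the young range. Its log2 fold change was -2.60 ± 1.12 (edgeR unadjusted p = 0.0248, adjusted p = 1), and leaving out single libraries moved the unadjusted p between 0.00882 and 0.193, the latter without PYC young 2. Col19a1 in PYC ran from 1.41 to 170.0 CPM in young (median 36.4) and from 3.07 to 51.0 CPM in old libraries (median 18.3), again within the young range. It gave -1.17 ± 0.56 (edgeR unadjusted p = 0.0430, adjusted p = 1), and 0.271 without the same library. Col5a1 in VIP ran from 1.06 to 121 CPM in young (median 31.6) and 0 to 64.1 CPM in old libraries (median 9.996), with -1.35 ± 0.66 (edgeR unadjusted p = 0.0487, adjusted p = 0.9996).

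The genes called highest in a type were read in that type at both ages, with overlapping ranges. In old libraries alone, Col6a1 and Col6a2 in PYC missed the threshold for type (edgeR adjusted p = 0.0827 and 0.499). So did Col25a1 and Col11a1 in SST (edgeR adjusted p = 0.0892 and 0.05995) and Col4a1, Col24a1 and Col6a3 in VIP (edgeR adjusted p = 0.0665, 0.146 and 0.260). Young libraries alone also missed it for Col6a2 in PYC, Col11a1 in SST, and Col24a1 and Col4a4 in VIP (edgeR adjusted p = 0.216, 0.857, 0.0823 and 0.215). In SST, Col19a1 had medians of 261 CPM in young and 251 CPM in old libraries (log2 fold change 0.07 ± 0.18), and Col25a1 111 and 77.2 CPM (-0.14 ± 0.27). In VIP, Col4a2 had medians of 89.4 and 113 CPM, and Col4a1 of 65.9 and 71.7 CPM. In PYC, Col6a1 had medians of 53.4 CPM in young and 108 CPM in old libraries, with ranges of 27.3 to 274 and 4.13 to 171 CPM. The fitted log2 fold change of Col6a1 with age there was -0.08 ± 0.47. No age difference was detectable for these genes at this depth and number of libraries.

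**Figure D5:**
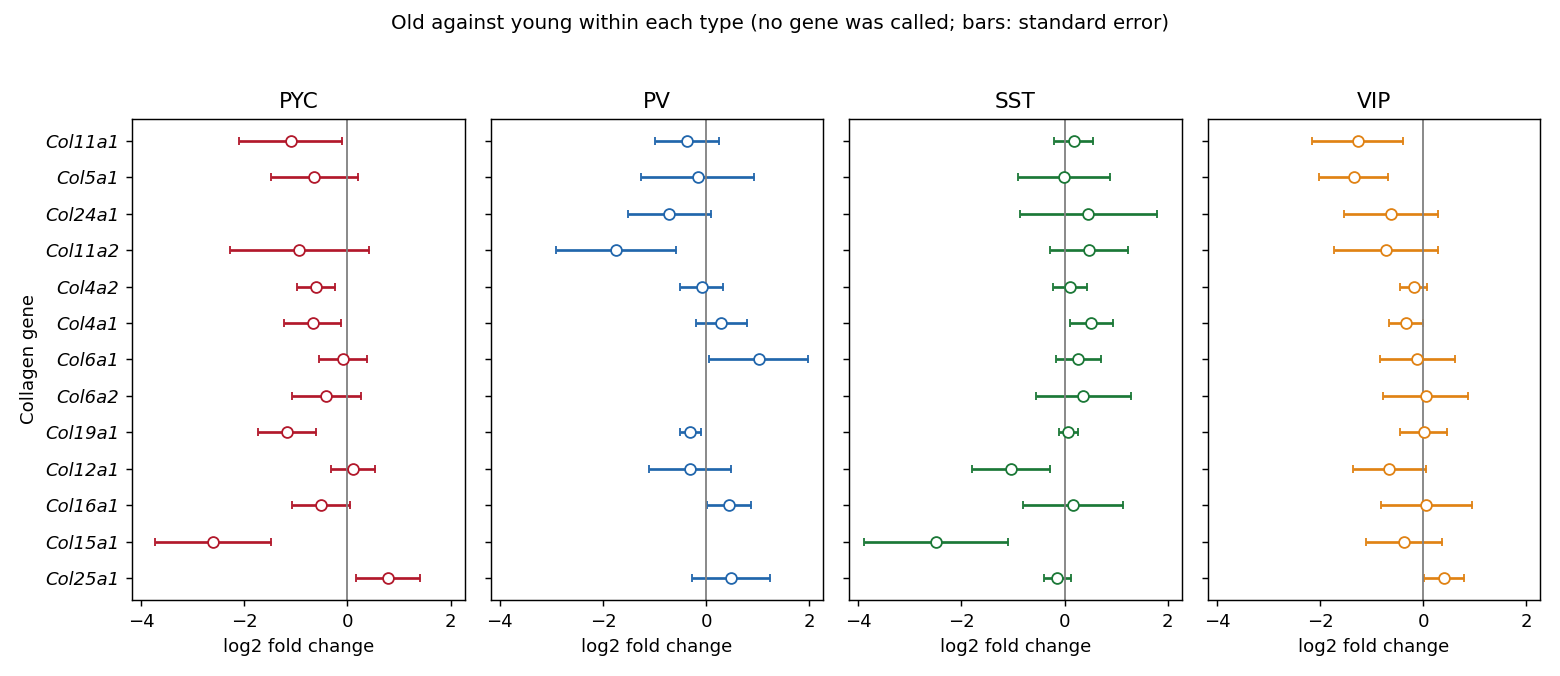
Log2 fold change of old against young libraries for the 13 more abundant collagen genes, by neuron type, with standard errors, on 1 scale for the 4 panels; a gene with too few counts in a type has no point. No gene passed the adjusted threshold, and Col15a1 in PYC (-2.60 ± 1.12) and SST (-2.50 ± 1.39) lay farthest to the low side.

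Whether the age difference varied between the 4 types was tested by an interaction over 19208 genes, of which 600 were called (3.12%), among them the 2 sparse members Col10a1 (edgeR adjusted p = 0.0218) and Col4a3 (edgeR adjusted p = 0.0369). Col10a1 had counts in 5 of 12 old PYC libraries (4.57 ± 8.74 CPM) and 2 of 9 young ones (1.09 ± 2.67 CPM). Col4a3 had counts in 4 of 9 young VIP libraries (11.6 ± 25.8 CPM, highest 77.0), 4 of 12 old VIP libraries (0.656 ± 1.40 CPM) and 5 of 12 old SST libraries (3.96 ± 9.48 CPM). The 2 of 41 members are a share near that of all genes, and 0 were called with the CPM filter, DESeq2, limma-voom or the F number as a term. Over the 9604 genes at or above the median abundance 1 gene was called (0.0104%), and it was no collagen.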

How the data were processed

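The deposited table holds raw counts per gene, made by the authors from reads aligned with HISAT2, build GRCm38, as the submitters' processing notes list. Not given in the sources used here: the aligner's version, the counter, the annotation and whether strand was used. Values of overlapping or antisense genes are therefore uncertain. Of the 44 collagen genes, 31 share no exon with another counted gene. Symbols and coordinates came from GENCODE M21 (48349 of 48795 genes matched), and promoter windows from RefSeq.

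Counts were fitted with edgeR 4.0.16 (R 4.3.3), with TMM scaling, low-count filtering, the quasi-likelihood test and Benjamini-Hochberg adjustment over all genes. Type and interaction tests used all 8 groups, and age tests the libraries of 1 type. Relations used log2(CPM + 1) and 100000 permutations. DESeq2 1.42.0 and limma 3.58.1 were alternatives. The fit was tested on simulated data, where its false type calls outnumbered the genes changed, and most of them fell among genes below the median abundance. The labels do not tie libraries to mice. Within a type each library was taken as a separate mouse. With 12 old and 9 young mice, libraries of different types then come from the same mice. All were treated as independent, so the tests between types ignored this pairing.

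Members called, with a group mean of at least 5 CPM, or with an unadjusted age p under 0.01 were to be named with values; sparse ones are given more briefly. Members and lists were chosen with earlier results of these data known.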

Additional observations from a re-analysis of the deposited data

Results flagged for a closer look

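In groups of 4 to 10 libraries, a library was listed when its gap to the next value exceeded Dixon's 95% limit. Only the young groups have that size, so the old groups, of 12 libraries each, were not tested. Of 56 groups tested, each a measure in the young libraries of 1 type, 15 were listed. In 9 of these the library was one of low mitochondrial share. Dixon's limit assumes independent, normally distributed values. CPM is often skewed, and the measures share libraries, so 15 of 56 cannot be set against a chance rate of 1 in 20. PYC young 2 stood above the other young PYC libraries in the summed collagen level (1590 CPM, next 632.5), in Col4a2 (289.5 CPM, next 97.93), Col4a1 (208.4, next 76.71), Col16a1 (151.4, next 35.18), Col6a2 (118.3, next 39.05), Col15a1 (111.4, next 37.64) and Col5a1 (104.8, next 40.83). VIP young 3 stood apart in Col4a2 (347.2 CPM, next 187.2) and Col11a1 (108.4, next 40.5). Both are among the 6 libraries under 3% mitochondrial counts, and the part of that difference in these values was not tested.

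The other 6 are libraries of the usual mitochondrial share. SST young 9 was high in Col12a1 (173.9 CPM, next 37.69) and Col24a1 (25.18, next 6.147). Col24a1 was high in PYC young 7 (43.62 CPM, next 14.98) and Col25a1 in VIP young 5 (160.2 CPM, next 86.62). In PV, Col6a1 was high in young 6 (29.85 CPM, next 12.92), and Col16a1 in young 2 (35.85 CPM, next 26.13). The interaction of age and type gave an edgeR adjusted p of 0.0218 for Col10a1 and 0.0369 for Col4a3, 2 of 41 members beside 3.12% of all genes, and 0 members with the CPM filter, DESeq2, limma-voom or the F number as a term.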

How the results depend on the processing

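No paired analysis was possible because the libraries of a group are numbered in sample order, which pairs nothing. Counts of collagen genes called moved under these settings. Higher in PYC (4): 2 with a CPM filter, DESeq2, the median-abundance fit or without low-mitochondrial libraries, 1 in young and 0 in old libraries alone. Lower in PYC (3): 1 at either age alone. Higher in PV (0): 1 with no filter, 4 with limma-voom, 2 without low-mitochondrial libraries. Lower in PV (7): 4 without those libraries, 1 in old. Higher in SST (3): 1 in old. Lower in SST (0): 1 with no filter or limma-voom, 2 with DESeq2. Higher in VIP (9): 5 with DESeq2, 4 in the median-abundance fit, 2 in old. Lower in VIP (0): 1 with the F number in the titles as a term. Age calls (0) became 4, 2, 1 and 2 in PYC, PV, SST and VIP with no filter. The interaction (2) gave 6 with no filter and 0 with the CPM filter, DESeq2, limma-voom, the F number in the titles as a term or the median-abundance fit. Contrasts of 2 types, the Col4 and Col6 pair relations, and the single-age and low-mitochondrial settings of the fibroblast relations were chosen after seeing the data. The cause of these changes was not tested.

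Leaving out each library gave 3 to 5 higher and 2 to 4 lower in PYC, 0 to 1 and 6 to 9 in PV, 2 to 3 and 0 to 1 in SST, 6 to 11 and 0 to 1 in VIP, and 0 to 0 by age. Of the fibroblast relations, r turned to -0.18 (PV) and -0.0258 (SST) in young libraries, and in VIP to 0.0509 with a pseudocount of 0.1, 0.12 without the 2 farthest libraries, 0.0475 without low-mitochondrial libraries and 0.24 in old. For Col6a1 against Col6a2, r turned to -0.11, -0.0533 and -0.11 in PYC (without the 2 farthest, without low-mitochondrial libraries, old), -0.00186 in PV (without the 2 farthest), -0.000839 in SST (old) and 0.0356 in VIP (old). Of the single-gene checks, 495 kept their call, 119 lost it, 1 gained it and 0 turned sign.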

Other observations

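Among the 12 old VIP libraries, old 9 and old 11 held 439 and 331 CPM of Sst, the marker used to pick SST cells, against at most 55.7 CPM in the other 10. The same pair held 159 and 183 CPM of Col19a1 and 169.5 and 126 CPM of Col25a1, the collagens highest in SST pools. The other 10 had 0.286 to 70.5 CPM of Col19a1 (median 48.3) and 28.3 to 91.1 CPM of Col25a1 (median 54.0). The 2 libraries were kept, and their part in the VIP values was not tested.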
